A study of Sus scrofa with 40 samples.

Results

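The Toll-like receptors TLR1 to TLR8, their co-receptor CD14 and their adaptor MYD88 were followed through warm ischemia and cold storage of pig kidneys. Members were the probes whose gene name on the array, or whose symbol in brackets in the probe description, was one of these 10 genes, and for TLR4 also a probe against an assembled transcript. The rule found 20 of the 43603 probes, with 6 for TLR4, 3 for TLR2, 2 each for TLR3, CD14 and MYD88, and 1 each for TLR1, TLR5, TLR6, TLR7 and TLR8. All probes of a gene were kept apart, and 1 probe described as a Toll-like receptor without a symbol in brackets was left out.

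The values came from 40 single-color arrays of total RNA, 1 per tissue sample, with 5 samples in each of 8 groups. Control kidneys (Ctl) of 3-month-old Large White pigs were removed, sampled and frozen at once. Kidneys of the WI groups were clamped for 60 min at 37 °C, and cold-stored kidneys (WI+CS6h, WI+CS24h) were clamped in the same way, flushed with University of Wisconsin solution and then kept in it at 4 °C for 6 or 24 h. Each condition was sampled in cortex (C) and at the corticomedullary junction (CMJ). The same 5 kidneys were sampled after 6 and 24 h, so that 15 kidneys gave all 40 samples. The pigs were described as brothers, none of the groups was reperfused, and none had cold storage without warm ischemia. In such bulk RNA, fewer cells of a type and less RNA per cell cannot be told apart.

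The depth of an array is how far its signal clears the background, and 57.0 to 69.9% of spots were well above it. The 5 proximal tubule genes and the 5 genes of thick ascending limb and collecting duct that the array holds were each measured above background on most arrays, and markers of both segments were therefore present. Of the 20 member probes, 12 were well above background on all 40 arrays. In sample number 5 of the cold-stored groups, 21.1 to 34.3% of all probes read highest of the group and 22.4 to 28.0% lowest, where an equal share would be 20%. Its mean correlation with the other samples of its group was the lowest in each stored group, but in WI+CS24h-C hardly so (0.9786, against 0.9788 for sample 4). The summed signals of its neutrophil markers and of its T and NK cell markers, given further on, stood apart in all 4 groups. Results of cold-stored kidneys are therefore given with and without this sample, an alternative chosen after the data were seen. The labels do not say which kidney a sample number is.

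Toll-like receptors are membrane proteins that bind molecules of microbes and molecules released from injured cells. TLR1, TLR2, TLR4, TLR5 and TLR6 sit at the cell surface, while TLR3, TLR7 and TLR8 bind RNA inside endosomes. All but TLR3 pass their signal to MYD88, which recruits kinases that lead to NF-kB and AP-1 and so to chemokines and cytokines. In the kidney TLR4 is made by tubular epithelium, endothelium and leukocytes, and it is known as a receptor for danger signals of ischemic tissue.

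The probes on which the results rest, which for TLR4 are all 6, are printed below, since probes of 1 gene did not read alike. The TLR4 probes are given in the order of their target positions, at bases 991, 2242, 2450, 2734 and 3358 of the reference transcript and at base 3516 of an assembled transcript. The MYD88 probes lie at bases 669 and 2517 of different transcript models, the TLR7 probe at base 3513 and the CD14 probe at base 1296. The letters AATAAA, the canonical polyadenylation signal, are in capitals where a probe holds them. For probes whose shown stretch is shorter than the whole 60 bases, 30 bases are given.
TLR4 A_72_P419074: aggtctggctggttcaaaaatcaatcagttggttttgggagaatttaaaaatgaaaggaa
TLR4 A_72_P444577: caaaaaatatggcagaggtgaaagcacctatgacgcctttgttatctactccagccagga
TLR4 A_72_P547391: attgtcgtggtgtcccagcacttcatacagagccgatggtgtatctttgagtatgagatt
TLR4 A_72_P165431: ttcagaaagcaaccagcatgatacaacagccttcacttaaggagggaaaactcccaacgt
TLR4 A_72_P444572: catgtctcctctataaacctgtatcataag
TLR4 A_72_P180746: ggcacttcttggAATAAAgggagacaagtc
TLR7 A_72_P165031: ctacccttaagaagtactggtatgtataga
CD14 A_72_P050971: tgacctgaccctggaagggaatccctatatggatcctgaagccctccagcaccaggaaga
MYD88 A_72_P088111: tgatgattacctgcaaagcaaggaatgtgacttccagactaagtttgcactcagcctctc
MYD88 A_72_P245972: accctaggtttatAATAAAgagttctatac
AATAAA was found on the printed strand of 3 of the 20 member probes, those of TLR1, TLR4 A_72_P180746 and MYD88 A_72_P245972, and on the other strand of 1, a TLR3 probe. Among all 43603 probes, each 60 bases long, 9.60% held it on the printed strand and 4.17% on the other. The files name no genome build, so no chromosome position is given. By gene order in RefSeq, TLR1 lies between TLR10 and TLR6, and TLR8 lies next to TLR7.

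TLR4, the receptor for lipopolysaccharide, was higher in cold-stored cortex than in control cortex. After 6 h, 5 of its 6 probes passed the test, and after 24 h 4 passed. On the 4 probes that passed at both times, all well above background on every array, the difference was 0.72 to 0.97 on the log2 scale after 6 h and 0.72 to 0.96 after 24 h. The fifth, A_72_P419074, was near background in controls. With 1 sample left out, the number of called member probes ran from 1 to 6 after 6 h and from 2 to 6 after 24 h, and with the 2 groups fitted alone it was 0 and 1. Among all probes, 871 and 1358 passed with the 2 groups alone, against 1939 and 1262 with all cortex groups fitted together. In that joint fit the TLR4 probes were the only ones of the 20 member probes that passed, where 4.45% of all probes passed after 6 h (1.98% higher) and 2.90% after 24 h (1.32% higher). Warm ischemia alone gave no TLR4 call, in a comparison that called 0.0849% of all probes. A probe was called where its adjusted p in limma (Benjamini-Hochberg over all probes) was under 0.05 and its change was at least 0.5 on the log2 scale.

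A_72_P180746, which targets the assembled transcript, was the TLR4 probe called against both control and warm-ischemic cortex. Its log2 intensity was 5.70, 5.58, 5.52, 5.72 and 6.36 in Ctl-C and 5.95, 6.05, 5.74, 5.94 and 5.83 in WI-C. It was 7.30, 6.90, 6.70, 6.42 and 6.42 in WI+CS6h-C and 7.18, 7.14, 6.25, 6.79 and 6.32 in WI+CS24h-C. Every sample stored for 6 h lay above every control sample, whereas after 24 h the lowest samples lay below the highest control, sample 5 of Ctl-C. The difference from control was 0.97 ± 0.21 (log2 fold change ± SE, n = 5 per group, limma adjusted p = 0.0106) after 6 h and 0.96 ± 0.21 (adjusted p = 0.0144) after 24 h. Both stored groups also lay wholly above WI-C on this probe, by 0.84 ± 0.21 (limma adjusted p = 0.0329) at 6 h and 0.83 ± 0.21 (adjusted p = 0.0446) at 24 h. These calls against WI-C were lost on leaving out any of 7 and 8 of the 10 samples (adjusted p up to 0.0956 and 0.124), with slide as a block (0.583 and 0.293) and with the 2 groups alone (0.0630 and 0.0869). Those 2 calls were the only ones of members between stored and warm-ischemic cortex, where 2.44 and 1.68% of all probes were called (1.30 and 0.922% higher).

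**Figure D1:**
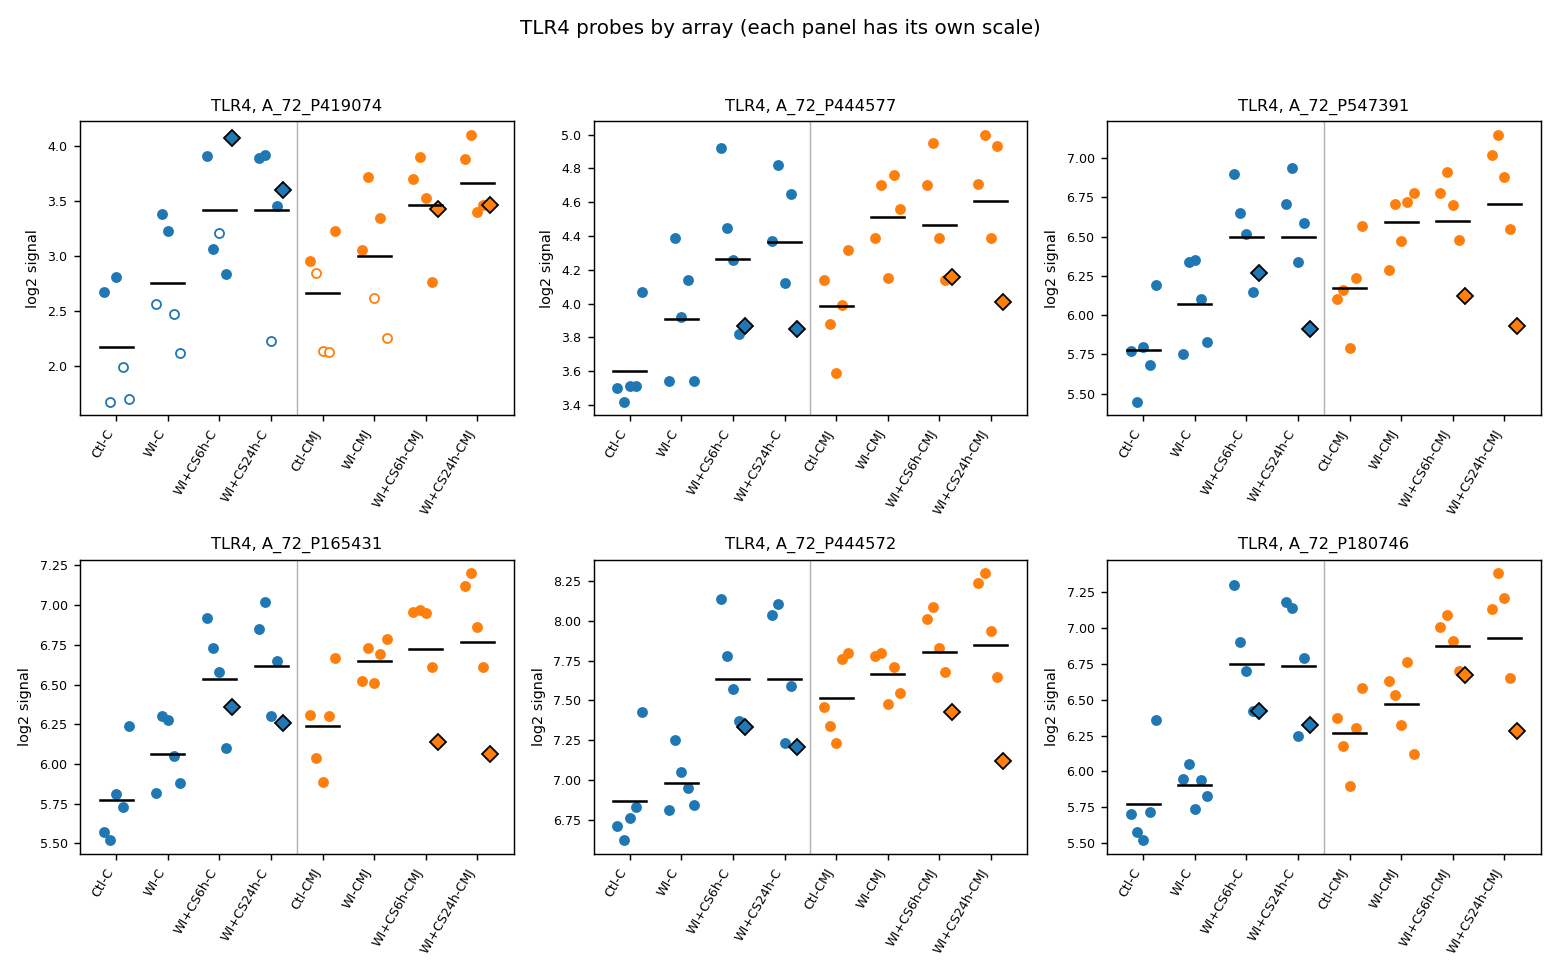
Log2 intensity of the 6 TLR4 probes in each of the 40 samples (vertical axis) by group (horizontal axis), blue for cortex and orange for CMJ, with a line at the group mean, open symbols for samples not well above background and diamonds for sample 5 of the cold-stored groups. The stored cortex groups have higher means than Ctl-C in all 6 panels, and in Ctl-C sample 5 is the highest on 5 of the 6 probes.

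Of the other TLR4 probes, 3 that were well above background on all 40 arrays were also called at both times. On A_72_P165431, Ctl-C read 5.57, 5.52, 5.81, 5.73 and 6.24, WI+CS6h-C read 6.92, 6.73, 6.58, 6.10 and 6.36, and WI+CS24h-C read 6.85, 7.02, 6.30, 6.65 and 6.26. The groups overlapped by 1 sample after 6 h and not after 24 h, and the difference was 0.76 ± 0.18 and 0.84 ± 0.18 (limma adjusted p = 0.0195 and 0.0137). On A_72_P444572, Ctl-C read 6.71, 6.62, 6.76, 6.83 and 7.43, against 8.14, 7.78, 7.57, 7.37 and 7.33 after 6 h and 8.04, 8.11, 7.23, 7.59 and 7.21 after 24 h. Its difference was 0.77 ± 0.20 at both times (adjusted p = 0.0329 and 0.0416), with samples 4 and 5 of the 6 h group and samples 3 and 5 of the 24 h group inside the control range. A_72_P547391 differed by 0.72 ± 0.19 at both times (adjusted p = 0.0366 and 0.0463). Its calls were lost on leaving out any of 7 and 8 of the 10 samples, and those of A_72_P444572 any of 7 at each time. The 6 h call of A_72_P165431 was lost on leaving out any of 3 samples, and its 24 h call was never lost.

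On the remaining TLR4 probes fewer calls were made. A_72_P419074, which targets base 991, was well above background on 2 of 5 Ctl-C and 4 of 5 WI+CS6h-C samples. It read 2.67, 1.68, 2.81, 1.99 and 1.70 in Ctl-C, 3.91, 3.06, 3.21, 2.84 and 4.07 in WI+CS6h-C and 3.89, 3.92, 2.23, 3.45 and 3.60 in WI+CS24h-C. The 6 h group lay above the control group without overlap (1.25 ± 0.35, limma adjusted p = 0.0434), and the same difference of 1.25 ± 0.35 at 24 h did not pass (adjusted p = 0.0553) unless dim probes were removed (adjusted p = 0.0354). Since 3 of the 5 controls were not well above background on this probe, the size of its difference is not well measured. Leaving out any of 7 of the 10 samples ended its 6 h call. A_72_P444577 read 3.50, 3.42, 3.51, 3.51 and 4.07 in Ctl-C, 4.92, 4.45, 4.26, 3.82 and 3.87 after 6 h and 4.37, 4.82, 4.12, 4.65 and 3.85 after 24 h. Its differences of 0.66 ± 0.23 and 0.76 ± 0.23 did not pass (adjusted p = 0.0977 and 0.0777). Over the 40 arrays, which share their probes' target, the 6 probes correlated pairwise with r from 0.655 to 0.974, lowest for A_72_P419074.

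The 5 and the 4 called probes share a gene and an extract, so they are not separate measurements of the tissue. The median log2 difference of the 20 probes was 0.18 after 6 h and 0.17 after 24 h, against 0.057 and 0.014 over all probes. Both stored groups were compared with the same Ctl-C samples.

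Without sample 5 of the stored groups, 4 TLR4 probes passed in cortex after 6 h and 5 after 24 h, where 3.59 and 3.90% of all probes did, and A_72_P180746 differed by 1.05 ± 0.21 and 1.06 ± 0.21 (limma adjusted p = 0.00896 and 0.00839). A_72_P419074 was lost at 6 h (adjusted p = 0.114), and A_72_P444577 passed at 24 h (0.89 ± 0.23, adjusted p = 0.0334). With slide as a block, the difference of A_72_P180746 was 1.04 at both times with adjusted p = 0.0525 and 0.194, and within single slides it ranged from 0.053 to 1.77 after 6 h (4 slides) and from 0.67 to 1.44 after 24 h (2 slides). On scan day 1 the difference after 6 h was 1.25 and on day 2 it was 0.78, and after 24 h these were 1.42 and 0.39.

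After warm ischemia alone, the 6 TLR4 probes differed from Ctl-C by 0.11 to 0.58 with no call. A_72_P180746 differed by 0.12 ± 0.21 (limma adjusted p = 1.00), and its WI-C values lay inside the range of Ctl-C. That range reached 6.36 only through sample 5. The WI-C values, 5.74 to 6.05, lay above the other Ctl-C samples, at 5.52 to 5.72. None of the 20 member probes was called in WI-C against Ctl-C in limma, and 1 had an unadjusted p under 0.05.

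At the CMJ, TLR4 was higher than in controls on 2 probes after 24 h of storage and on none after 6 h, where 3.70 and 3.33% of all probes were called (1.45% higher after 24 h). A_72_P180746 read 6.37, 6.18, 5.90, 6.30 and 6.58 in Ctl-CMJ and 6.63, 6.53, 6.32, 6.76 and 6.12 after warm ischemia. After storage it read 7.01, 7.09, 6.91, 6.70 and 6.67 at 6 h and 7.13, 7.38, 7.21, 6.65 and 6.28 at 24 h. All samples stored for 6 h lay above the controls, while sample 5 of the 24 h group fell among them. The difference was 0.61 ± 0.19 after 6 h (limma adjusted p = 0.0721), which did not pass here but did with dim probes removed (adjusted p = 0.0459), with quantile normalization within groups (0.0285) and with the 2 groups alone (0.0409), and 0.66 ± 0.19 after 24 h (adjusted p = 0.0446). A_72_P419074 read 2.95, 2.85, 2.14, 2.13 and 3.23 in Ctl-CMJ, where it was well above background on 2 samples, and 3.88, 4.10, 3.40, 3.46 and 3.46 in WI+CS24h-CMJ, where it was so on all 5. These groups did not overlap, and the difference was 1.00 ± 0.28 (adjusted p = 0.0451), whereas that after 6 h, 0.80 ± 0.28, did not pass (adjusted p = 0.123). As in cortex, most controls were near background, so that the size is not well measured, and 1 of the 2 TLR4 calls at the CMJ rests on this probe. Leaving out 1 sample ended the CMJ call of A_72_P180746 for 7 of the 10 samples and that of A_72_P419074 for 8.

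The other TLR4 probes were 0.29 to 0.49 above Ctl-CMJ after 6 h and 0.33 to 0.62 after 24 h, with no call. On A_72_P165431, Ctl-CMJ read 6.31, 6.04, 5.89, 6.30 and 6.67, WI-CMJ 6.52, 6.73, 6.51, 6.69 and 6.79, WI+CS6h-CMJ 6.96, 6.97, 6.95, 6.61 and 6.14, and WI+CS24h-CMJ 7.12, 7.20, 6.86, 6.61 and 6.06. Sample 5 of each stored group lay among the controls on that probe, below the other 4. After warm ischemia alone, the TLR4 differences at the CMJ were 0.15 to 0.52, none called.

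Without sample 5, TLR4 passed at the CMJ on 3 probes after 6 h and on 4 after 24 h, beside 3.80 and 4.12% of all probes. On A_72_P165431 the difference was then 0.63 ± 0.15 (limma adjusted p = 0.0200) and 0.71 ± 0.15 (adjusted p = 0.00934), and on A_72_P180746 it was 0.66 ± 0.16 (adjusted p = 0.0256) and 0.83 ± 0.16 (adjusted p = 0.00618). A_72_P419074 no longer passed after 24 h (adjusted p = 0.0598). With slide as a block and all samples kept, A_72_P180746 differed by 0.61 after 24 h (adjusted p = 0.119), with 0.35 and 0.38 within the 2 slides that hold both groups.

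From 6 to 24 h of storage no member probe was called in either tissue, where 0% of all probes in cortex and 0.00229% at the CMJ were. The number of member probes with an unadjusted p under 0.05 was 0 in both. The 6 TLR4 probes differed between these times by -0.012 to 0.097 in cortex and by 0.043 to 0.20 at the CMJ, with SE from 0.18 to 0.35.

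In controls TLR4 read 0.39 to 0.65 more at the CMJ than in cortex over the 6 probes, without a call, where 0.347% of all probes were called. On A_72_P444572 the difference was 0.65 ± 0.20 in Ctl (limma adjusted p = 0.222), 0.69 ± 0.20 in WI (adjusted p = 0.108), 0.17 ± 0.20 in WI+CS6h and 0.21 ± 0.20 in WI+CS24h. Over the 8 groups, the mean of A_72_P180746 ran from 5.78 in Ctl-C through 5.90 (WI-C), 6.27 (Ctl-CMJ), 6.47 (WI-CMJ), 6.73 (WI+CS24h-C), 6.75 (WI+CS6h-C) and 6.88 (WI+CS6h-CMJ) to 6.93 in WI+CS24h-CMJ. Only the step from WI-C to Ctl-CMJ exceeded the pooled SD of the neighboring groups. The difference between tissues in the response to 6 h of storage was -0.48 ± 0.28 on A_72_P444572 (CMJ minus C, interaction in limma, adjusted p = 0.882), so the responses of the tissues were not shown to differ.

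CD14, which hands lipopolysaccharide to TLR4, was not called in any comparison. A_72_P050971 read 7.19, 7.38, 7.16, 7.10 and 7.49 in Ctl-C, 7.05, 7.42, 7.83, 7.18 and 7.40 in WI-C. In stored cortex it read 7.21, 6.95, 7.25, 6.98 and 8.55 at 6 h and 7.39, 7.12, 7.23, 7.57 and 8.01 at 24 h. At the CMJ it read 7.25, 7.24, 7.46, 7.17 and 7.18 in Ctl, 7.16, 7.39, 7.49, 7.09 and 7.77 in WI, 6.87, 7.0, 7.14, 7.28 and 8.05 after 6 h and 7.06, 7.17, 7.31, 7.15 and 8.07 after 24 h. In each stored group sample 5 was the highest, by 0.68 to 1.45 over the mean of the other 4, and those 4 overlapped the controls. The group means spanned only 7.26 to 7.46, and no neighboring means in that order differed beyond their pooled SD.

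The difference of stored from control kidneys on A_72_P050971 was 0.12 and 0.20 in cortex and 0.0062 and 0.094 at the CMJ, with SE from 0.21 to 0.25. The second CD14 probe, A_72_P756625, had sample 5 highest as well, at 5.75 and 5.14 in cortex and 4.88 and 5.14 at the CMJ, over 3.36 to 4.10, 2.91 to 4.47, 3.52 to 3.83 and 2.68 to 3.73 in the other 4. Without sample 5 it was called once, lower in WI+CS24h-CMJ than in WI-CMJ (-0.83 ± 0.20, limma adjusted p = 0.0218, with 3.87% of all probes called), while A_72_P050971 was called nowhere.

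**Figure D2:**
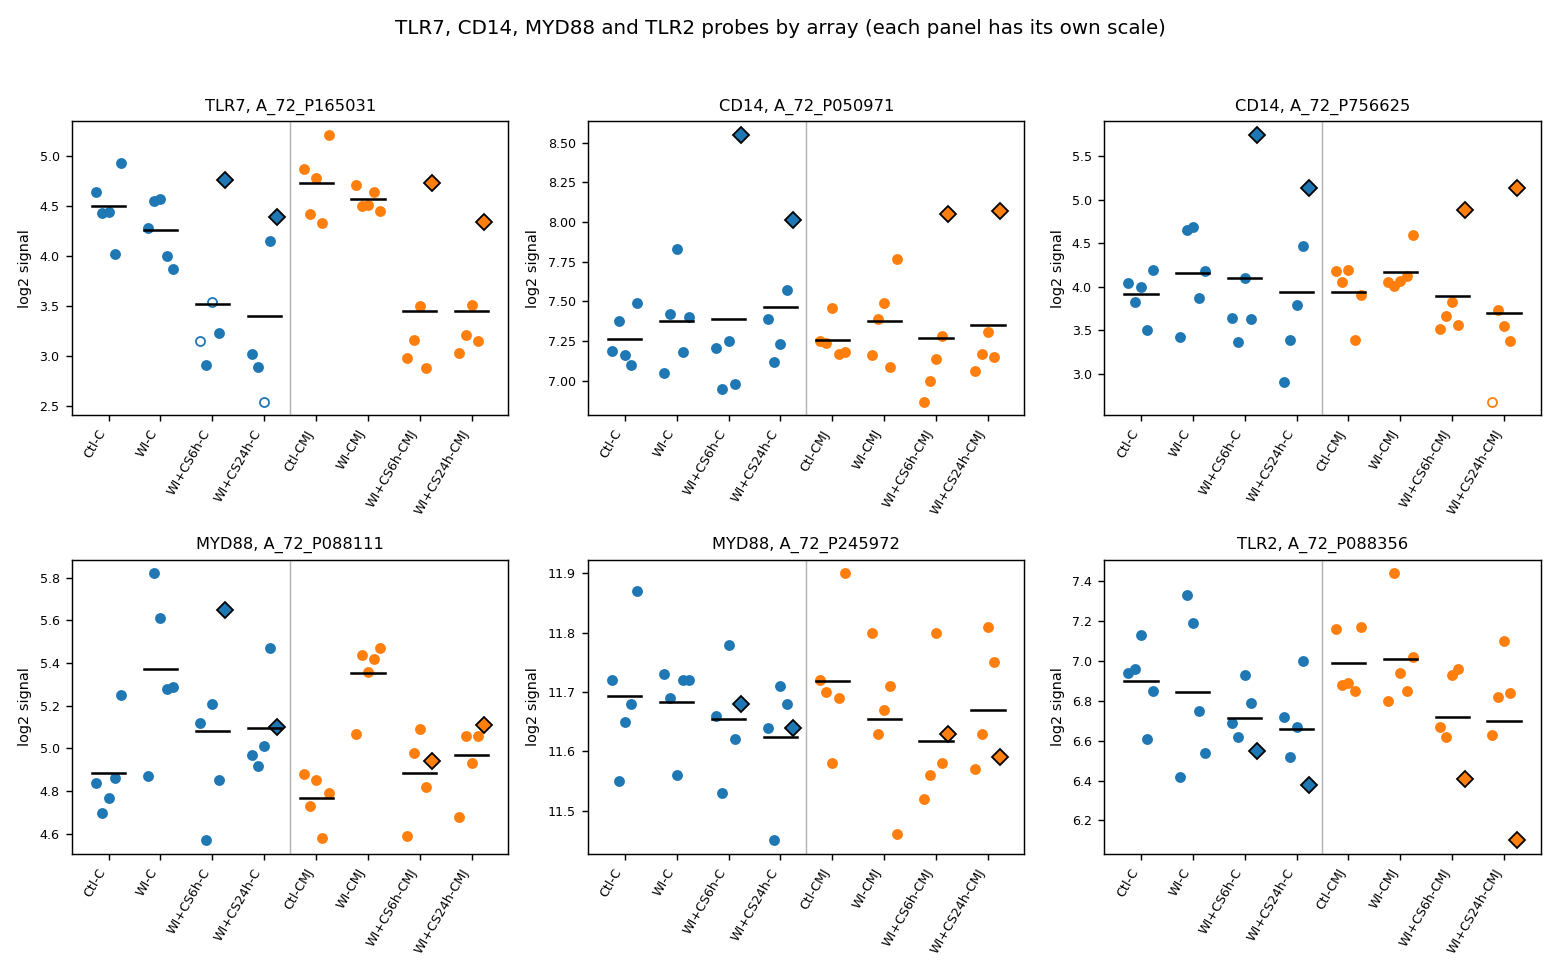
Log2 intensity by sample (vertical axis) and group (horizontal axis) of TLR7, both CD14 probes, both MYD88 probes and the TLR2 probe A_72_P088356, with colors, lines and symbols as in the plot of TLR4. Sample 5 of the cold-stored groups is the highest of its group for TLR7 and for both CD14 probes.

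TLR7, an endosomal receptor for single-stranded RNA, was lower in cold-stored CMJ than in control and warm-ischemic CMJ. Its only probe read 4.87, 4.42, 4.78, 4.33 and 5.21 in Ctl-CMJ and 4.71, 4.50, 4.51, 4.64 and 4.45 in WI-CMJ. After storage it read 2.98, 3.16, 3.50, 2.88 and 4.73 at 6 h and 3.03, 3.21, 3.51, 3.15 and 4.34 at 24 h. Samples 1 to 4 of each stored group lay below every control sample, and sample 5 lay within the range of the controls at both times, at 24 h just above the lowest of them.

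Against Ctl-CMJ, TLR7 fell by 1.27 ± 0.30 after 6 h (limma adjusted p = 0.0188), as the only member called, where 1.86% of all probes were lower. After 24 h it fell by 1.28 ± 0.30 (adjusted p = 0.0171), which with the 2 TLR4 probes made 3 calls among the 20 member probes, where 2.25% of all probes were lower. Against WI-CMJ it fell by 1.11 ± 0.30 and 1.12 ± 0.30 (adjusted p = 0.0406 and 0.0383), again as the only member called, where 3.28 and 3.34% of all probes were called (1.70 and 1.90% lower). Both calls against WI-CMJ were lost on leaving out any of 9 of the 10 samples, all but sample 5 of the stored group (limma adjusted p up to 0.105 and 0.0978), and with slide as a block (adjusted p = 0.181 and 0.0613). That at 6 h was also lost with the 2 groups alone (adjusted p = 0.0869). WI-CMJ differed from Ctl-CMJ by -0.16 ± 0.30 on this probe, with no call.

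In cortex TLR7 read 4.64, 4.43, 4.44, 4.02 and 4.93 in Ctl, 4.28, 4.55, 4.57, 4.00 and 3.87 in WI, 3.15, 2.91, 3.54, 3.23 and 4.76 in WI+CS6h and 3.02, 2.89, 2.54, 4.15 and 4.39 in WI+CS24h. The probe was well above background in 3 and 4 of the 5 stored samples, respectively, and in all unstored ones. The differences of -0.97 ± 0.36 and -1.09 ± 0.36 from Ctl-C did not pass (limma adjusted p = 0.120 and 0.109). The 6 h difference was called with 75th percentile scaling (-1.17, adjusted p = 0.0408) and with quantile normalization within groups (-1.21, adjusted p = 0.0283), and that at 24 h with the latter (-1.28, adjusted p = 0.0483). Over the 8 groups, the means of the stored groups lay at 3.40 to 3.52 and those of the unstored groups at 4.25 to 4.72, and the step between these sets was the only one beyond the pooled SD of its neighbors.

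Without sample 5, TLR7 was called in both tissues. It fell by 1.59 ± 0.17 and 1.50 ± 0.17 from Ctl-CMJ (limma adjusted p = 3.84e-05 and 6.06e-05), and by 1.29 ± 0.27 and 1.34 ± 0.27 from Ctl-C (adjusted p = 0.0125 and 0.00943). Its difference from WI-C was then called as well, at -1.05 ± 0.27 and -1.104 ± 0.27 on the log2 scale (limma adjusted p = 0.0441 and 0.0397), which with A_72_P180746 of TLR4 made 2 member calls at each time, where 2.53 and 2.11% of all probes were called. Among the 4 stored cortex samples left at each time, 2 at 6 h and 3 at 24 h were well above background on the TLR7 probe, so that the size of these falls in cortex is not well measured. Against WI-CMJ it fell by 1.43 ± 0.17 and fell by 1.34 ± 0.17 (adjusted p = 0.000114 and 0.000213), where 3.76 and 3.87% were. At the CMJ with all samples, the difference from Ctl after 6 h lost its call when these 2 groups were fitted alone (-1.27, limma adjusted p = 0.0819) and in the deposited matrix (-0.43, adjusted p = 0.0300, under the size limit), as it did with normexp correction. It kept the call with slide as a block (-1.33, adjusted p = 0.0291). Within the 4 slides that hold both groups it was -2.05 to -1.37, but those hold only samples 1 to 4 of WI+CS6h-CMJ and not sample 5, the one inside the control range. After 24 h it was -1.20 with that block (adjusted p = 0.134), -1.18 within the slide of sample 4 and -0.44 within that of sample 5. Against WI-CMJ the difference after 6 h was -1.63 and 0.018 within 2 slides, the latter that of sample 5. Within scan days the difference was -1.05 and -1.42 after 6 h and -1.31 and -1.45 after 24 h. Leaving out sample 1, 2 or 4 of WI+CS6h-CMJ ended the 6 h call, with adjusted p up to 0.0545.

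TLR3 and TLR8 complete the endosomal receptors. TLR3, which binds double-stranded RNA, was measured by a pair of probes that share 48 bases. Its group means were 8.63 to 8.87 on A_72_P471206 and 8.42 to 8.61 on A_72_P303279, and no comparison called it. After storage A_72_P303279 differed by 0.19 ± 0.11 from Ctl-C at both times and by 0.039 ± 0.093 and 0.036 ± 0.093 from Ctl-CMJ. TLR8, a receptor for single-stranded RNA like TLR7, was well above background on 1 of 40 arrays, so that no level of it can be compared.

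TLR1, TLR2 and TLR6, which together sense lipoproteins, were not called. TLR1 had group means of 6.97 to 7.31, with Ctl-CMJ highest. On A_72_P088356, the TLR2 probe that was well above background on all arrays, the means of cortex were 6.90 in controls, 6.85 after warm ischemia and 6.72 and 6.66 after 6 and 24 h of storage, and those of the CMJ were 6.99, 7.01, 6.72 and 6.70 in the same order, with SD from 0.15 to 0.40. The other TLR2 probes were well above background on 20 and 0 arrays, TLR6 on 13 and TLR5, the flagellin receptor, on 1. No level of TLR5 can be given from that.

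MYD88 was called once, on 1 of its 2 probes, as higher at the CMJ after warm ischemia alone. A_72_P088111 read 4.88, 4.73, 4.85, 4.58 and 4.79 in Ctl-CMJ and 5.07, 5.44, 5.36, 5.42 and 5.47 in WI-CMJ, without overlap. The difference was 0.58 ± 0.11 (limma adjusted p = 0.0150), the only member call in a comparison that called 0.787% of all probes (0.459% higher). After storage the probe read 4.59, 4.98, 5.09, 4.82 and 4.94 at 6 h and 4.68, 5.06, 4.93, 5.06 and 5.11 at 24 h. Their differences from WI-CMJ, -0.47 ± 0.11 and -0.38 ± 0.11, had limma adjusted p of 0.0162 and 0.0455 but stayed under the size limit of 0.5.

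The other MYD88 probe did not show this. A_72_P245972, which targets another transcript model, read 11.72, 11.70, 11.58, 11.69 and 11.90 in Ctl-CMJ and 11.80, 11.63, 11.67, 11.71 and 11.46 in WI-CMJ. These values overlapped, and the difference was -0.063 ± 0.080 (limma adjusted p = 0.832). In cortex A_72_P088111 read 4.84, 4.70, 4.77, 4.86 and 5.25 in Ctl and 4.87, 5.82, 5.61, 5.28 and 5.29 in WI, a difference of 0.49 ± 0.19 that did not pass (adjusted p = 0.807).

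The MYD88 call on A_72_P088111 was lost without sample 5 of WI-CMJ (limma adjusted p = 0.0558). With slide as a block the difference was 0.66 (adjusted p = 0.196), and within the 1 slide that holds both groups it was 0.78. Within scan days it was 0.49 and 0.68.

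**Figure D3:**
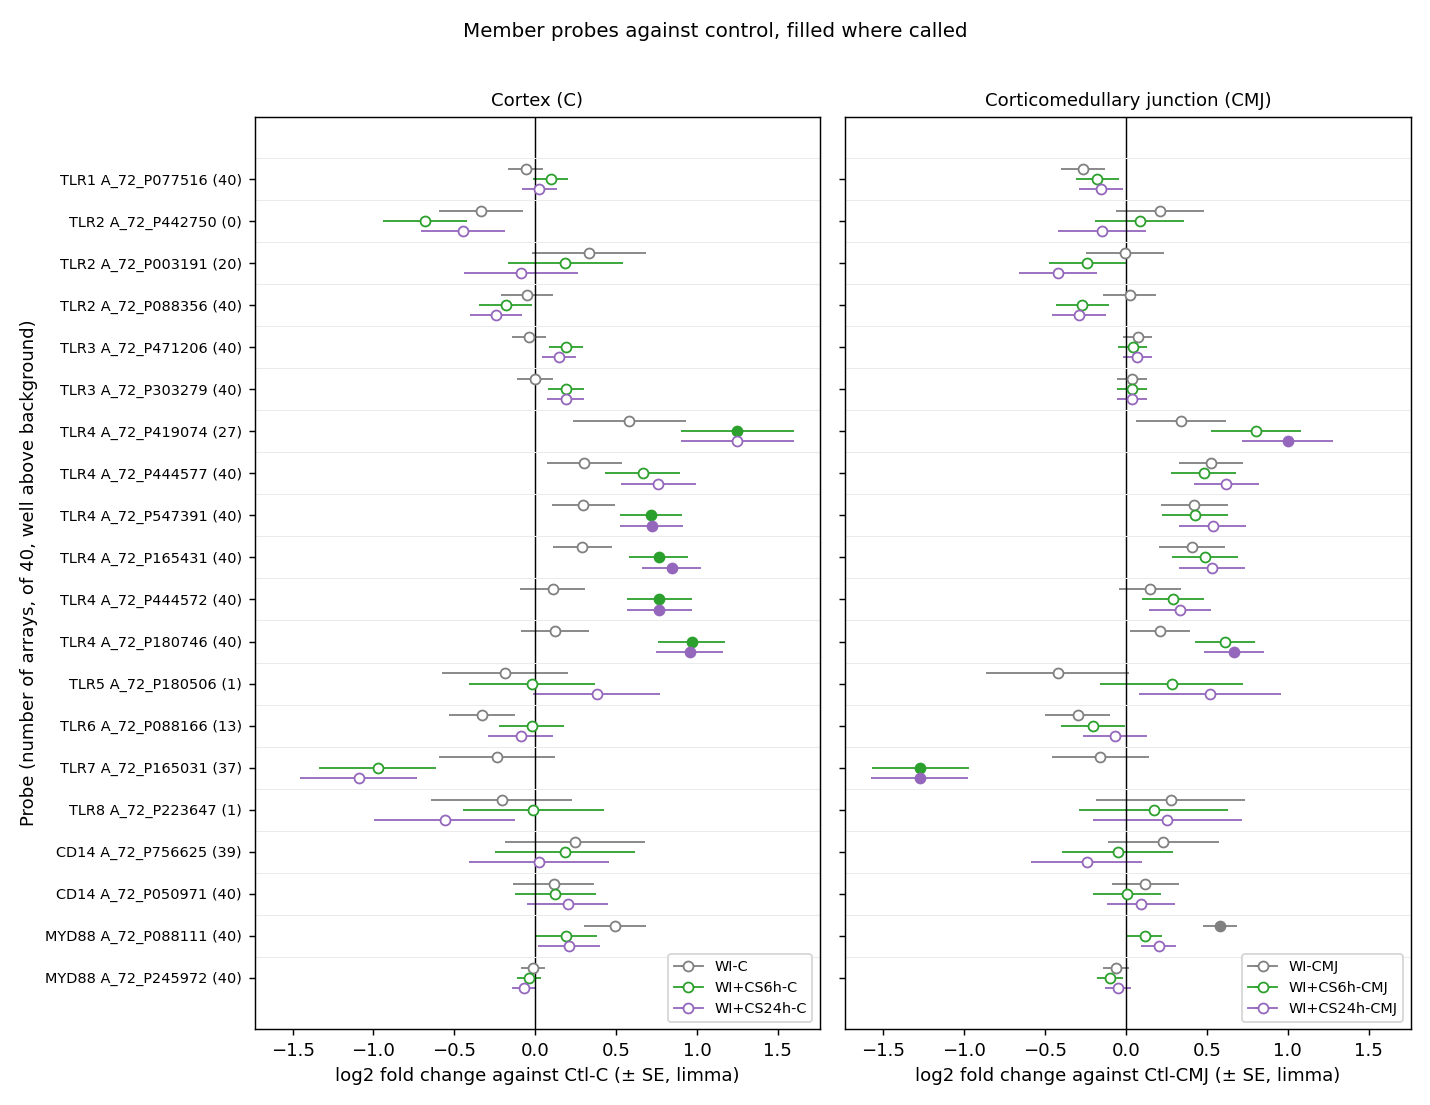
Log2 fold change against control (horizontal axis, bars ± SE, n = 5 per group) of the 20 member probes (vertical axis) in cortex and at the CMJ, for WI (grey), WI+CS6h (green) and WI+CS24h (purple), with filled symbols for called probes and the number of arrays well above background in each label. The filled symbols are TLR4 in stored kidneys of both tissues, TLR7 in stored CMJ and 1 MYD88 probe in WI-CMJ.

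In all, 18 of the tests of the 20 member probes in the 12 comparisons within tissues passed, most of them of TLR4 probes. In these comparisons the share of all probes called ran from 0 to 4.45%. No member test passed between CMJ and cortex or in the interaction of treatment and tissue. Between the tissues, 0.863% of all probes were called in WI, 0.0643% in WI+CS6h and 0% in WI+CS24h. The number of member probes with an unadjusted p under 0.05 in limma was 4 in Ctl, 5 in WI and 0 in both stored conditions. The 3 interactions called 0% of all probes, with 0 member probes at an unadjusted p under 0.05.

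Among the 9 other receptors and co-receptors on the array, with 22 probes, none was called against control in either tissue. This held for LY96, the MD-2 protein that binds lipopolysaccharide with TLR4, for LBP, which carries it, and for TLR9 and TLR10. Of the adaptors and kinases, with 23 probes tested in cortex and 24 at the CMJ, only MAP3K8 was called, a kinase between the NF-kB inhibitor complex and the MAP kinases. It fell by 1.25 ± 0.19 and 1.37 ± 0.19 in cortex after 6 and 24 h, and by 1.099 ± 0.19, 1.11 ± 0.19 and 1.15 ± 0.19 at the CMJ after warm ischemia and the 2 storage times (limma adjusted p from 0.000619 to 0.00969). In WI-CMJ 0.328% of all probes were lower. In WI-C the difference of MAP3K8 was -0.92 ± 0.19 and did not pass (adjusted p = 0.124). TRAF3, a ubiquitin ligase of the interferon branch, was not called on any of its 3 probes, which differed from control by -0.20 to 0.17 over the 3 treatments and both tissues.

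The list of inhibitors of the pathway had 25 probes, of which 15 were lower after storage in cortex at both times and 15 and 17 at the CMJ, with none called after WI alone in either tissue. Over all probes, 2.47 and 1.57% were lower in stored cortex and 1.86 and 2.25% in stored CMJ. The list named 12 genes, of which only 6 had a matched probe. Of the 25 probes 15, and of the called ones 14, 14, 14 and 15, were those of ZFAND5, a zinc finger protein with a domain like that of the NF-kB inhibitor A20, whose called probes fell by 0.61 to 1.15. Since most of the calls were of this 1 gene, the count is a count of its probes rather than of inhibitors. ZFAND5 is also known for binding the proteasome. MAP3K21, a kinase described as a brake on TLR4, was lower on A_72_P489049 by 0.76 to 0.87 in the 4 stored groups and was not called on another probe, where it differed by 0.14 to 0.38. IRAK3 was not well above background in WI+CS24h-CMJ and was at least 1.52-fold lower there than in Ctl-CMJ, where 3 of 5 samples measured it (adjusted p = 0.0301). TNFAIP3, which encodes A20, was not called, with differences of 0.073 to 0.30 in the stored groups.

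Of 17 probes of transcription factors, 4, 5 and 5 were higher in cortex after warm ischemia alone, 6 h and 24 h of storage and 7, 6 and 6 at the CMJ, with none lower. The share of all probes called higher was 0.0275, 1.98 and 1.32% in cortex and 0.459, 1.47 and 1.45% at the CMJ, and it applies to the lists that follow as well. FOS, an AP-1 subunit, supplied 4 of these in each comparison, by 1.20 to 3.19. JUN, its partner, supplied the others, higher by 0.81 to 1.57, except for RELA, the NF-kB subunit p65, which was higher by 0.51 ± 0.11 in WI-CMJ (limma adjusted p = 0.0381).

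Of 39 probes of target genes, 0, 5 and 3 were higher in cortex and 5, 7 and 8 at the CMJ in the same order, and 2 were lower at the CMJ after each storage time. CCL2, a chemokine for monocytes, was higher in stored cortex by 1.09 to 1.48 and in stored CMJ by 1.03 to 1.15 on a pair of probes. CXCL2, a chemokine for neutrophils, was higher in stored CMJ by 0.77 to 0.97. CD83, a marker of activated dendritic cells and lymphocytes, was higher on its pair of probes in WI-CMJ by 1.34 and 1.54, in stored CMJ by 1.04 to 1.33 and in WI+CS6h-C by 0.65 and 1.02, and on 1 probe in WI+CS24h-C by 0.90. CD80, a costimulatory molecule, was not well above background in Ctl-CMJ and was at least 2.44-fold higher in WI-CMJ, where 3 of 5 samples measured it, and at least 2.47-fold and 2.21-fold higher after 6 and 24 h of storage (limma adjusted p = 0.0123, 0.00218 and 0.00484). The remaining calls were those of CCL3L1 (1.03 ± 0.19) and CXCL8 A_72_P232367 (1.62 ± 0.38, with 3 of 5 controls well above background) in WI-CMJ, CXCL8 A_72_P413808 (0.89 ± 0.18) in WI+CS24h-CMJ, and SELE, the endothelial adhesion molecule E-selectin, at least 2.11-fold higher in WI+CS6h-C, where 3 of 5 samples and no control measured it (adjusted p = 0.0400). The probes that were lower were those of IL6, at -2.19 ± 0.30 and -2.40 ± 0.30 on A_72_P177826 after 24 and 6 h. The other IL6 probe, well above background in 3 of 5 controls and in no stored CMJ sample, was at least 2.45-fold and 2.10-fold lower in the same order (adjusted p = 0.000252 and 0.000280).

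Among 50 probes of molecules reported as ligands of TLR2 and TLR4 after injury, 1 was higher in each stored group and 1 in WI-CMJ, in the stored groups a share near that over all probes. In the stored groups it was 1 of the 20 probes of HSPD1, the mitochondrial chaperone, by 0.63 to 0.70, and in WI-CMJ it was BGN, the matrix proteoglycan biglycan, by 1.30 ± 0.29 (limma adjusted p = 0.0380). Of the 11 listed ligand genes 10 had a matched probe, and HSPA1A, an HSP70 gene, had none and was not counted. The median log2 difference of the inhibitor list is not given, since most of its probes are those of ZFAND5. For the target genes the median log2 difference from control after storage was 0.26 and 0.083 in cortex and 0.13 and 0.15 at the CMJ, against 0.057, 0.014, -0.0025 and 0.0082 over all probes.

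Neutrophil markers were high in sample 5 of the stored groups, where CD14 was highest too. The summed signal of the 4 neutrophil genes on the array, S100A8, S100A9, S100A12 and MPO, was 21.2 to 27.0 in Ctl-C and 11.6 to 22.2 in Ctl-CMJ. In sample 5 of the stored groups it was 1556 and 1656 in cortex and 2405 and 1971 at the CMJ, while in the other stored samples it reached at most 173. Of those genes 3, 1, 3 and 3 read highest and 0, 1, 0 and 0 lowest in sample 5 of WI+CS6h-C, WI+CS24h-C, WI+CS6h-CMJ and WI+CS24h-CMJ. MPO, a granule enzyme of neutrophils, was not well above background on any array. The 3 S100 genes also belong to the list of ligands.

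Markers of T and NK cells and of leukocytes in general were low in those samples. The summed signal of the 2 general leukocyte genes on the array was 473 and 440 in cortex and 401 and 351 at the CMJ in sample 5, the lowest of each group, against group medians of 599, 640, 642 and 731. For T and NK cells, the summed signal over 9 genes was 432 and 450 in cortex and 412 and 401 at the CMJ in sample 5, the lowest of each group, where the group medians were 812, 868, 982 and 936. The summed signal of 9 genes of monocytes and macrophages, cells that make CD14, had group medians of 4925 to 6497 and was 4301 to 8304 over all samples. In sample 5 of WI+CS6h-C, where CD14 A_72_P050971 read 8.55, 6 of those 9 genes were the highest of the group and none the lowest, while in the other stored groups 3 were highest and 2 lowest.

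Markers of other cells also moved with the groups. The summed signal of 6 genes of fat cells was 1663 to 2094 in WI+CS6h-C and 1563 to 1904 in WI+CS24h-C, against 1326 to 1532 in Ctl-C, and that of 2 glomerular genes was 208 to 295 in WI+CS6h-C against 164 to 195 in Ctl-C, without overlap in each case. The sum of the 5 proximal tubule genes was 48711 to 55666 in WI-CMJ and 38712 to 45878 in Ctl-CMJ, and in sample 5 of the stored groups it was 33875 to 38998, the lowest of each group. Of these 5 genes, 0, 1, 0 and 2 read highest and 2, 2, 1 and 1 lowest in sample 5 of WI+CS6h-C, WI+CS24h-C, WI+CS6h-CMJ and WI+CS24h-CMJ. The fat cell and glomerular sums of WI+CS6h-C also lay above those of WI-C (1173 to 1595 and 169 to 206). The summed signal of the 4 B cell genes on the array was 295 to 350 and 292 to 363 in CMJ stored for 6 and 24 h, above the 178 to 278 of WI-CMJ without overlap, in the comparisons that called TLR7, and overlapped the 249.6 to 321 of Ctl-CMJ. It was also 315 to 406 in WI+CS24h-C, above the 220.1 to 294 of WI-C. The 1 erythrocyte gene on the array, HBB, read 11.8 to 24.5 in WI-C, above the 1.23 to 7.23 of Ctl-C without overlap, and 4.56 to 24.7 in WI-CMJ. It was highest of its group in sample 5 of all 4 stored groups, at a linear signal of 28.6 and 56.7 in cortex and of 18.1 and 24.9 at the CMJ, the latter values within or near the range of the unstored warm-ischemic groups. The lowest HBB signals, such as those of Ctl-C, were near background, so the size of its differences is not well measured. The part of any of these cells in the values of TLR4, TLR7, CD14 and MYD88 was not tested.

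**Figure D4:**
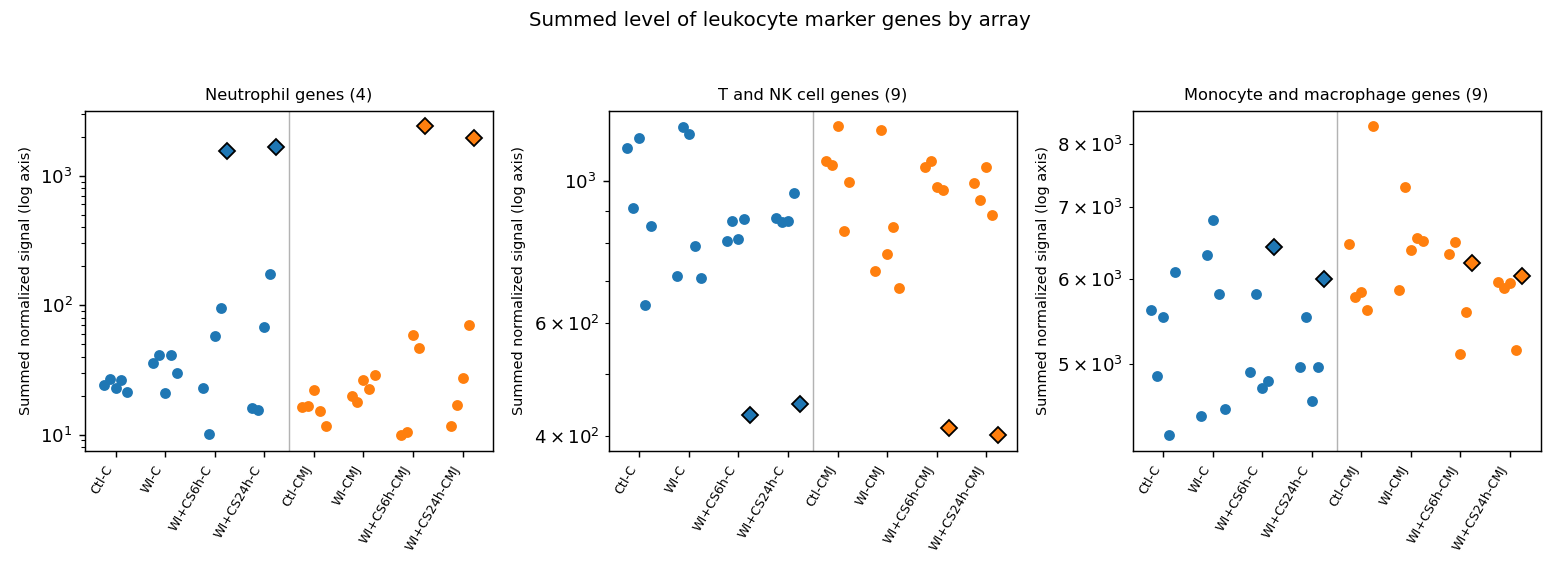
Summed linear signal (vertical axis, log scale) of neutrophil, T and NK cell, and monocyte and macrophage marker genes in each sample by group (horizontal axis), with diamonds for sample 5 of the cold-stored groups. Those 4 samples lie at 1556 to 2405 for neutrophil markers, above all others, and at 401 to 450 for T and NK cell markers, below all others.

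Among the 12 member probes well above background on all arrays, sample 5 was the highest of its group on 4, 3, 3 and 4 and the lowest on 3, 6, 6 and 7, in the order WI+CS6h-C, WI+CS24h-C, WI+CS6h-CMJ and WI+CS24h-CMJ. TLR7 was higher in it by 1.12 to 1.60 than the mean of the other 4, and TLR4 A_72_P180746 was lower by 0.26 to 0.81. Without it, 5, 6, 4 and 5 member probes were called against control in these 4 groups, TLR7 among them as lower in each.

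The genes whose values ran most like those of the members across the 40 arrays were found by Pearson's r, as a description over arrays that share conditions. For TLR4 A_72_P444572 they were TPM1 (r = 0.918), a tropomyosin, SDC2 (0.916), a heparan sulfate proteoglycan, and CD59 (0.888), an inhibitor of complement. For TLR7 they were HUS1 (0.908), PGM1 (0.890) and INTS10 (0.882). For TLR2 they were SLA-DQB1 (0.868), a class II antigen, ITGB2 (0.857), the beta chain of leukocyte integrins, and ADORA3 (0.848). For CD14 they were DPH3 (0.892), ANKRD9 (0.886) and PPP1R14B (0.881), and for MYD88 A_72_P245972 they were CHGB (0.730), TAP2 (0.699) and SCAP (0.662). For TLR1 they were C1H15orf48 (0.893), TMSB4X (0.842) and REEP2 (0.819), and for TLR3 KDELC2 (0.859), BAALC (0.858) and DNAJB5 (0.856).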

How the data were processed

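Total RNA of 40 samples was hybridized by the authors to 1-color porcine arrays, 1 array per sample. The authors deposited the scanner output of each array as intensity, extracted with Agilent Feature Extraction 11.5.1.1 per the file headers, background-subtracted and not normalized between arrays. They also deposited a matrix of log2 values, made in R 2.15.2 with limma per the submitters' processing notes and the methods. For 32153 identifiers with 1 spot, 99.98% of these log2 values equaled the log2 median pixel intensity after quantile normalization over all 40 arrays to within 1e-06. For the 3802 identifiers with several spots only 56.9% equaled the mean over the spots so treated, so how those values were made is not known. The names that 5 TLR4 probes, the 2 TLR3 probes and the 2 CD14 probes share are of this kind. The matrix served as an alternative only.

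Here the processed intensity was log2-transformed, outlier spots were set to missing, the 40 arrays were quantile normalized together and spots of 1 probe were averaged, so 43803 spots gave 43603 probes. Models with 1 term per group were fitted in each tissue (20 arrays, 12 comparisons) and over both tissues (4 comparisons of CMJ with C, 3 interactions) in R 4.3.3 with limma 3.58.1 (lmFit, eBayes, Benjamini-Hochberg over all probes). Probes with no value at all in 1 of the groups were dropped, leaving 43581 in cortex and 43579 at the CMJ. Groups came from the sample labels, and the number of arrays limits the precision. Where no array of a group was well above background, a bound of the fold is given, and where some were, their number. The fit was tested on simulated data before use. Figures were made in Python 3.11.15 with matplotlib 3.10.9.

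Named by rule were all 20 member probes, the probes of each pathway list that were called against control (those of 1 gene grouped), 10 further pathway genes (TLR9, TLR10, LY96, LBP, TRAF3, MAP3K8, ZFAND5, MAP3K21, IRAK3 and TNFAIP3), and the 3 genes of highest Pearson r with the brightest probe of each member well above background on at least 20 arrays. The members and lists were chosen with earlier results of these data known. Listed genes with no probe matched by name or symbol were not counted, among them ATF3, REL and RELB of the transcription factors and IL1B of the target genes. Gene symbols came from the array files and a RefSeq table, and neighboring genes from RefSeq (Sscrofa11.1).

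Per the labels the same 5 kidneys were sampled at 6 and 24 h, but the labels do not say that a sample number is a kidney. Same-numbered samples of the 6 and 24 h groups correlated in their deviations from group means by 0.668 to 0.903 at the CMJ and by -0.327 to 0.702 in cortex. Between cortex and CMJ this was 0.158 to 0.589 in WI, 0.211 to 0.791 in WI+CS6h, 0.311 to 0.782 in WI+CS24h and -0.246 to 0.231 in Ctl (23021 probes). Fits of those groups alone with the replicate block called 0 member probes. P-values measure the spread between these samples.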

Additional observations from a re-analysis of the deposited data

Results flagged for a closer look

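In a group of 5 samples, a highest or lowest value was marked where its gap to the nearest other, divided by the range of the group, exceeded 0.71 (Dixon). This was met by 14 of 111 combinations of a member probe and a group, where chance gives about 1 in 20, or 6. Sample 5 of a cold-stored group accounted for 6 of the 14.

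CD14 held 5 of these values. On A_72_P050971 they were 8.55 in sample 5 of WI+CS6h-C (others 6.95 to 7.25), 8.07 in sample 5 of WI+CS24h-CMJ (others 7.06 to 7.31) and 7.46 in sample 3 of Ctl-CMJ (others 7.17 to 7.25). On A_72_P756625 they were 4.88 in sample 5 of WI+CS6h-CMJ (others 3.52 to 3.83) and 4.60 in sample 5 of WI-CMJ (others 4.01 to 4.12). In the 3 stored groups named here, the neutrophil markers of sample 5 were at 1556, 1971 and 2405, and their part in CD14 was not tested.

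TLR4 stood out in sample 5 of Ctl-C on 3 probes, at 6.36 on A_72_P180746 (others 5.52 to 5.72), 7.43 on A_72_P444572 (others 6.62 to 6.83) and 4.07 on A_72_P444577 (others 3.42 to 3.51). On A_72_P180746 this control sample lies below every WI+CS6h-C sample and inside the range of WI+CS24h-C, and on the other two probes it lies inside the range of both stored groups.

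TLR3 and TLR1 did so in sample 5 of WI+CS6h-CMJ. TLR3 was highest there, at 9.10 on A_72_P471206 (others 8.64 to 8.73) and 8.78 on A_72_P303279 (others 8.40 to 8.49), and TLR1 was lowest, at 6.78 (others 7.18 to 7.25).

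MYD88 had 3 low values, at 5.07 in sample 1 of WI-CMJ on A_72_P088111 (others 5.36 to 5.47), and on A_72_P245972 at 11.45 in sample 2 of WI+CS24h-C (others 11.64 to 11.71) and 11.56 in sample 3 of WI-C (others 11.69 to 11.73).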

How the results depend on the processing

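The 18 calls kept their direction under every alternative run. Of 233 values of these calls under other settings 157 still passed, and of 180 with 1 sample left out 89 did. All 18 passed with normalization within tissues, outlier spots kept or dim probes removed, 12 with 75th percentile scaling, 15 with quantile normalization within groups, 16 with means per systematic name and 10 in the deposited matrix, where a probe takes the value of its name, 14 with the replicate block, 14 with scan day and 3 with slide as a block, 4 with the 2 groups alone, and 0 with normexp correction. Normexp with its offset of 50 shrinks changes of dim probes: TLR7 in WI+CS24h-CMJ was then -0.16 from control (limma adjusted p = 0.00337), under the size limit.

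The member counts moved over 1.5 times as follows. A whole number in brackets after a setting is that of all probes, or all names, called in it. With systematic names and in the deposited matrix the member counts are of 14 names in place of 20 probes, of which TLR4 has 2, so lower counts there come in part from the unit. In WI+CS6h-C against Ctl-C (5 calls, 1939 of all) there were 0 with normexp (430), 2 with systematic names (1445), 2 in the deposited matrix (759), 3 with the replicate block (1862), 2 with slide as a block (1909) and 0 with the 2 groups alone (871). In WI+CS24h-C against Ctl-C (4 calls, 1262 of all) there were 2 with 75th percentile scaling (999), 0 with normexp (338), 2 with systematic names (900), 2 in the deposited matrix (523), 2 with the replicate block (1179), 0 with slide (165), 2 with scan day (1230) and 1 with the 2 groups alone (1358). Against WI-C, the 1 call at 6 h (1062 of all) became 3 within groups (2745), 0 with normexp (265), slide (10) or the 2 groups alone (295), and 2 without sample 5 (1104). The 1 call at 24 h (732 of all) became 0 with 75th percentile scaling (618), normexp (225), systematic names (433), the deposited matrix (276), slide (189) or the 2 groups alone (362), and 2 without sample 5 (921). At the CMJ, the 1 call of WI (343 of all) was 0 with normexp (50), the deposited matrix or slide. That of WI+CS6h against Ctl (1452 of all) was 2 within groups (1926) and with dim probes removed (1624), where TLR4 A_72_P180746 joined TLR7, 0 with normexp (289) or the deposited matrix (500), and 4 without sample 5 (1654). With the 2 groups alone (1137) it stayed at 1, but with that TLR4 probe (0.61, limma adjusted p = 0.0409) in place of TLR7. The 3 of WI+CS24h (1611 of all) were 0 with normexp (309), the deposited matrix (548) or slide (363), 1 with scan day (1588) or the 2 groups alone (966), and 5 without sample 5 (1794). Against WI-CMJ, the 1 call at 6 h (1429 of all) was 0 with normexp (280), the deposited matrix (475), slide (101) or the 2 groups alone (1113). That at 24 h (1455 of all) was 0 with normexp (295) or the deposited matrix (466), 3 without sample 5 (1686) and 1 with slide as a block (1303), which was TLR4 A_72_P180746 (0.58, limma adjusted p = 0.0407) and not TLR7. Apart from effects of construction (fewer samples, size under normexp, names in place of probes), the cause was not tested.

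With 1 sample left out, counts ranged from 1 to 6 and from 2 to 6 for WI+CS6h-C and WI+CS24h-C against Ctl-C, from 0 to 1 for both against WI-C, from 0 to 1, 0 to 1 and 1 to 5 for WI-CMJ, WI+CS6h-CMJ and WI+CS24h-CMJ against Ctl-CMJ, and from 0 to 1 and 0 to 2 for 6 and 24 h against WI-CMJ. All other comparisons stayed at 0 throughout. Counts against Ctl-C moved over 1.5 times without samples 1 to 4 of Ctl-C, 1 to 3 of WI+CS6h-C, or 1, 2 or 4 of WI+CS24h-C, and those against Ctl-CMJ without 1 to 4 of Ctl-CMJ, 5 of WI-CMJ, 1, 2 or 4 of WI+CS6h-CMJ, or 1, 2 or 5 of WI+CS24h-CMJ. The single calls against WI moved without most samples of either group. TLR4 A_72_P180746 at both times and A_72_P165431 at 24 h in cortex, and TLR7 at 24 h at the CMJ, passed against control whichever sample was left out. Quantile normalization within groups turned the share of all calls that were higher from 44.6 to 28.6% in WI+CS6h-C and from 45.7 to 17.8% in WI+CS24h-C against Ctl-C, from 44.1 to 67.2% in WI+CS6h-CMJ and from 39.2 to 57.6% in WI+CS24h-CMJ. It moved the median of all probes by -0.14 to 0.22 over all comparisons and interactions. The replicate block in these tissue fits ties groups of different kidneys that share only a number. Signal over background limits TLR5, TLR6, TLR8 and 2 TLR2 probes, for which a change could not be measured well.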
